A study of Mus musculus with 24 samples.

Results

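Calcineurin and the factors it acts on were followed through 8 genes: the catalytic subunits Ppp3ca and Ppp3cb, the regulatory subunit Ppp3r1, the inhibitors Rcan1 and Cabin1, and the transcription factors Nfatc1, Nfatc2 and Nfatc3. They were chosen by symbol, as 8 of the 15737 genes in the table, and all 8 had enough reads to be tested. In basophils that had met antigen and were then left without it, the RNAs of the 3 NFAT factors went different ways. Nfatc1 had no change past the threshold by 2 h, at 0.832 of its starting level in wild-type cells, and was at 0.406 by 4 h. In the same cells Nfatc2 rose 3.79-fold and Nfatc3 1.94-fold by 2 h. Rcan1 fell to 0.178 of its starting level in wild-type cells by 4 h. The folds of Nfatc2 and Rcan1 lean on single libraries, given with each. Between cells with and without tristetraprolin, edgeR called none of the 8 genes at any time, and DESeq2 called Rcan1 at 4 h.

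The cells were basophils grown from mouse bone marrow, either wild-type (WT) or from mice labelled TTP-KO, which lack tristetraprolin (TTP), the protein encoded by Zfp36 that binds AU-rich sequences in mRNAs and speeds their decay. The labels give neither the allele, nor the strain, age or sex of the mice. Marrow grew for 7 days in interleukin-3 at 0.3 ng/mL, and on day 6 an IgE against the hapten TNP (1 µg/mL) and 4-thiouridine (s4U, 150 µM), a uridine analogue that marks new RNA, went into the medium. Cells bearing CD49b were pulled out with magnetic beads and exposed for 1.5 h to TNP-coupled ovalbumin (TNP-OVA, 10 ng/mL) with s4U. They were washed and kept for 0, 1, 2 or 4 h with neither. All 8 groups shared the culture, the IgE, the antigen and the s4U, and none was left unstimulated, so 0 h is the end of the antigen pulse and not a resting state. Each group held 3 libraries, named A to C here. Whether the 3 were separate mice, separate cultures or repeats of 1 preparation is not stated. The p-values are therefore set against library-to-library spread that may be no more than technical.

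Calcineurin is a phosphatase that calcium and calmodulin switch on. After IgE receptors are cross-linked, calcium enters the cell, calcineurin removes phosphates from NFAT proteins, and these move into the nucleus, where they bind DNA, often beside AP-1, and drive cytokine genes such as Il4. Rcan1 and Cabin1 bind calcineurin and restrain it, and Rcan1 is itself a classical NFAT target, which makes it a feedback inhibitor. RNA levels, which are what was measured here, do not report phosphorylation or nuclear entry.

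Libraries held 8839195 to 25372846 reads, the smallest being TTP-KO 4 h B and C. Levels are given as CPM, the usual count scaled to library depth, after TMM scaling, which sets the depth from the bulk of the genes. Each tag marks the 3' end of a transcript, so CPM was not divided by gene length, and means are ± SD of 3 libraries. Zfp36 still gave reads in every TTP-KO library: 158 to 210 CPM at 0 h, where WT libraries had 219 to 269. In TTP-KO it gave 36.0 to 58.5 at 1 h, where WT had 104 to 147. At 2 h it gave 27.1 to 51.1, where WT had 73.3 to 78.8. Only at 4 h did the ranges overlap, at 22.4 to 62.1 where WT had 58.4 to 78.1. The sources used here do not say which part of the gene was deleted, so a 3' tag may lie outside it and this does not check the labels. The basophil protease gene Mcpt8 stood at 11800 to 15100 CPM, and the 12 basophil markers summed to 30700 to 51600. The 19 of 20 macrophage and monocyte markers in the table summed to 711 to 1190 CPM in WT and 1390 to 2520 in TTP-KO libraries, with no overlap at any time, and none of the 19 was at 0 in all 3 libraries of a group. Neutrophil markers summed to 2430 to 4830, T and NK markers to 457 to 933, nearly all of it Gzmb (448 to 925, with each other T and NK marker at most 15.3), dendritic and B cell markers to 220 to 554 and mast cell markers to 163 to 328. From 0 to 4 h, 9.97% of all genes tested were called lower in WT and 10.6% in TTP-KO. Of 10 neutrophil markers, 8 were called lower in WT and 5 in TTP-KO, with medians of -1.55 and -1.64 on the log2 scale. Of 12 basophil markers, 6 were called lower in each genotype. The part of these shifts in the changes over time below was not tested. In such bulk RNA, fewer cells of a type and less RNA per cell cannot be told apart.

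Averaged over the 24 libraries, Ppp3ca was the most abundant of the 8 genes at 424 CPM, above 97.1% of the genes tested. It was followed by Nfatc1 at 174, Ppp3r1 at 148 and Nfatc3 at 109. The lower-abundance genes were Ppp3cb at 38.8, Nfatc2 at 24.8, Cabin1 at 22.4 and Rcan1 at 10.0 CPM. In WT at 0 h the ranges of neighbours in this order separated only between Ppp3ca and Nfatc1 and between Ppp3r1 and Nfatc3. Ppp3cb, Cabin1, Rcan1 and Nfatc2, the last in that group's order, overlapped from one to the next. By 4 h Nfatc3 had passed Nfatc1 in both genotypes without overlap.

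Changes were tested with edgeR over all 12936 genes with enough reads, and a gene was called at an adjusted p under 0.05. In WT, 1 of the 8 genes was called from 0 to 1 h, 2 from 0 to 2 h and 5 from 0 to 4 h, against 2.33%, 10% and 16.7% of all genes tested. In TTP-KO the counts were 0, 2 and 3, against 2.74%, 9.89% and 18.1%. The 0 at 1 h stood beside 1 gene at an unadjusted p under 0.05, against 1587 of the 12936 genes tested, and 0 called by DESeq2. The WT calls at 4 h were 2 higher and 3 lower, against 6.76% and 9.97% of all genes in each direction, and those in TTP-KO 1 higher and 2 lower, against 7.45% and 10.6%. From 2 to 4 h, 1 gene was called in WT and 2 in TTP-KO, all lower, against 5.06% and 6.39%. Groups whose libraries do not overlap are common in this time course. Of all genes tested, 18.9%, 24.9% and 31.8% had no overlap with 0 h at 1, 2 and 4 h in WT, and 18.1%, 27.6% and 33.8% in TTP-KO. Between 2 and 4 h the shares were 18.3% in WT and 21.3% in TTP-KO. Scaling matters for these changes: with library totals alone, the median of all genes moved from 0.06 to 0.38 on the log2 scale for WT from 0 to 4 h and from 0.08 to 0.45 for TTP-KO, so the calls it moves among the 8 genes are given with each gene. With library totals, the TTP-KO calls from 0 to 4 h were 4 higher (Nfatc2, Nfatc3, Ppp3r1 and Cabin1) and 2 lower (Nfatc1 and Ppp3ca). The shares of all genes called with library totals are not given here. The shares above, from TMM, are no measure for these counts.

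Ppp3ca, the catalytic subunit with the most RNA here, fell from 0 to 4 h in both genotypes, and the test did not separate the falls (difference -0.38 ± 0.18, adjusted p = 0.506). In WT it stood at 537, 426 and 498 CPM in libraries A, B and C at 0 h, and at 375, 365 and 377 at 4 h. In TTP-KO it stood at 509, 510 and 527 at 0 h and at 294, 329 and 283 at 4 h. In each genotype every library at 4 h lay below every library at 0 h. The log2 change was -0.39 ± 0.12 (SE) in WT (adjusted p = 0.0228) and -0.77 ± 0.12 in TTP-KO (adjusted p = 3.8e-06). The fall from 2 to 4 h was called in TTP-KO (-0.42 ± 0.12, adjusted p = 0.0303) and not in WT (-0.07 ± 0.12, adjusted p = 0.904), and the difference between those was -0.35 ± 0.18 with an adjusted p of 0.664.

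The WT fall of Ppp3ca was called in 4 of 10 alternatives. It was -0.06 with library totals alone (adjusted p = 0.796), which is -0.44 relative to the median gene, beside -0.45 with TMM. It also missed the threshold without WT 0 h A or C or any one of the WT 4 h libraries, with adjusted p from 0.0523 to 0.152. In TTP-KO the fall from 0 to 4 h was called in 11 of 11 alternatives, with values from -0.83 to -0.40. The fall from 2 to 4 h was called in 4 of 11, and was lost without TTP-KO 2 h B or C or TTP-KO 4 h A or C, without TTP-KO 4 h B and C together, with library totals alone and with only the groups compared (adjusted p from 0.0148 to 0.283 over the alternatives).

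Ppp3cb, the other catalytic subunit measured in depth, was called in no comparison. Its libraries spread widely, from 14.5 to 54.1 CPM in WT and from 31.3 to 49.4 in TTP-KO at 0 h, and from 32.4 to 54.3 and 30.2 to 80.5 at 4 h. At 2 h the WT libraries, at 47.3, 53.4 and 45.6, all lay above the TTP-KO libraries, at 26.8, 37.4 and 25.1 (log2 change -0.71 ± 0.36, adjusted p = 0.669). The ratio of Ppp3ca to Ppp3cb was 18.1 ± 10.3 in WT at 0 h and 9.12 ± 2.17 at 4 h, and 13.5 ± 3.27 and 7.66 ± 3.48 in TTP-KO.

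Ppp3r1, the calcium-binding regulatory subunit that both catalytic chains need, kept nearly level. Group means lay between 123 ± 11.6 CPM in WT at 1 h and 165 ± 22.8 in TTP-KO at 4 h. Its WT libraries at 1 h, at 126, 133 and 110, all lay below those at 0 h, at 154, 184 and 156 (log2 change -0.42 ± 0.16, adjusted p = 0.233). At 0 h the TTP-KO libraries, at 117, 146 and 138, lay below all of WT (-0.30 ± 0.16, adjusted p = 0.743). With library totals alone, Ppp3r1 was called higher in TTP-KO at 4 h than at 0 h, by 0.68 (adjusted p = 0.00158), which is 0.23 above the median gene, and at 2 h, by 0.50 (adjusted p = 0.0389), which is 0.27 above it. Neither was called with TMM (0.30 ± 0.16, adjusted p = 0.202, and 0.29 ± 0.16, adjusted p = 0.311).

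**Figure D1:**
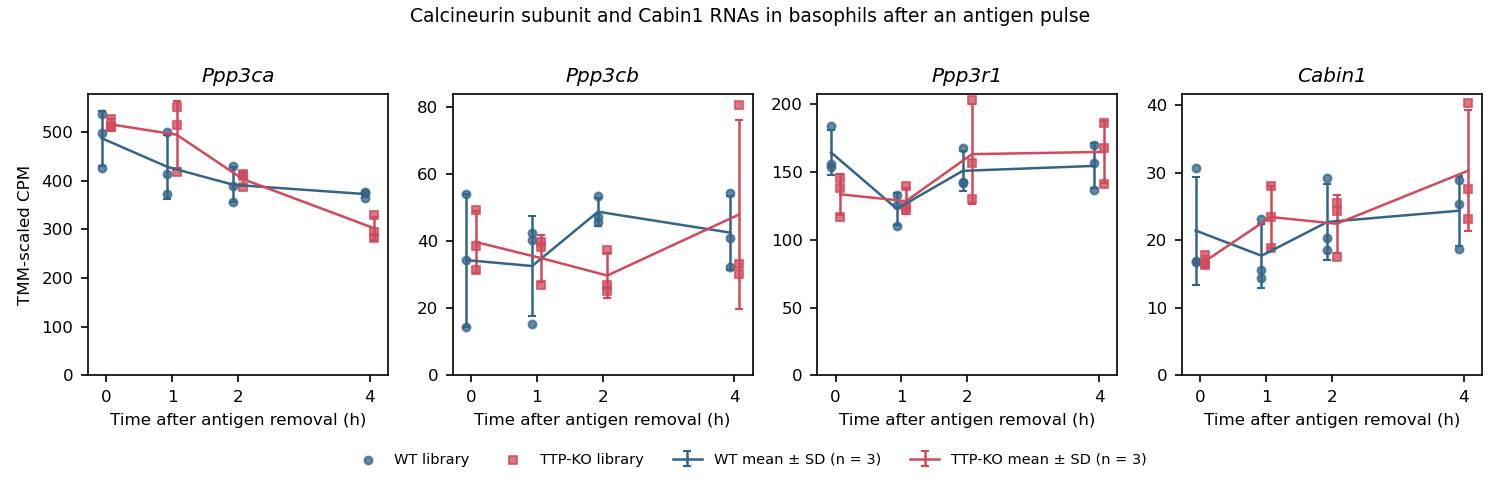
TMM-scaled CPM of Ppp3ca, Ppp3cb, Ppp3r1 and Cabin1 (vertical axes, each from 0) against hours after antigen removal; points are libraries, lines join group means and bars are SD of 3 libraries, with WT in blue circles and TTP-KO in red squares. Ppp3ca at 4 h lies below all 0 h libraries of its genotype, and the Ppp3cb libraries spread from 14.5 to 80.5 CPM.

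Rcan1, the feedback inhibitor, is made from 2 start sites in the mouse, and a 3' tag cannot tell their transcripts apart because they share their last exons. The promoter table, from RefSeq on GRCm38.p6, holds a window of 250 bases before and 50 after each start, and both are shown because the NFAT-responsive character of this gene is ascribed to the downstream one. Capitals mark matches to the NFAT core GGAAA, or TTTCC on the other strand, extended to GGAAAA or TTTTCC where a base more matches, and to the AP-1 sequence TGACTCA or its reverse complement TGAGTCA. The upstream start lies at chr16:92466120-92466419 and the downstream one at chr16:92400029-92400328, both on the minus strand.
Rcan1 upstream start: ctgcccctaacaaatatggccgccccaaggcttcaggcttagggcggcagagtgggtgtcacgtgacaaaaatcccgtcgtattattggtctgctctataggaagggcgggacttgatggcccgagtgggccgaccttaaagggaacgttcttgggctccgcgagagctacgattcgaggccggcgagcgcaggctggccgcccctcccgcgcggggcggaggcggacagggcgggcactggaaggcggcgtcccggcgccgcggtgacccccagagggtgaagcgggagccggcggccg
Rcan1 downstream start: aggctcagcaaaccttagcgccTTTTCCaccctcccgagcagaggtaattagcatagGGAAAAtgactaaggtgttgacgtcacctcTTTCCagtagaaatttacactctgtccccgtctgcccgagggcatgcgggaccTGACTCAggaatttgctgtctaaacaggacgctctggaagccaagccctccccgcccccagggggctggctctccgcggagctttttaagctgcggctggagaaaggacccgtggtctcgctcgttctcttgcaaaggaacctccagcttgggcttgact
The downstream window holds 3 NFAT cores, at -227, -193 and -163 from the start, and 1 AP-1 match at -110, and the upstream window holds neither. Of 32851 windows of this length, 61.3% held an NFAT core, 5.2% the AP-1 sequence and 3.31% both. For the other genes the table held 7 windows, of Nfatc2, Nfatc3, Ppp3cb, Ppp3r1 and Cabin1, with 0 to 4 NFAT cores and 0 AP-1 matches each. These are letter matches and not measured sites.

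Rcan1 RNA was scarce, with 17 to 360 reads per library, and fell after antigen removal in WT. It stood at 11, 17.5 and 13.5 CPM in WT libraries A, B and C at 0 h, at 14.6, 8.34 and 6.84 at 1 h, at 3.22, 7.24 and 2.11 at 2 h, and at 4.63, 1.78 and 1.01 at 4 h. In TTP-KO it stood at 19.1, 11.5 and 20.9 at 0 h, at 11.9, 5.53 and 22.8 at 1 h, at 8.83, 10.7 and 10.0 at 2 h, and at 9.82, 5.91 and 11.7 at 4 h. At 2 h all libraries of each genotype lay below its 0 h libraries. At 4 h this held in WT, and in TTP-KO 1 library, C at 11.7, lay above the lowest 0 h library, at 11.5. The WT change from 0 to 4 h was -2.49 ± 0.69 (adjusted p = 0.00764). It was called in 9 of 10 alternatives, with adjusted p from 0.000251 to 0.0641, and missed the threshold without WT 4 h C, where it was -2.11. Without WT 4 h A it was -3.32 (adjusted p = 0.00305), so the size of the fall depends on which WT 4 h library is kept. The TTP-KO change was -0.91 ± 0.66 (adjusted p = 0.367), and the difference between the genotypes' changes, 1.58 ± 0.93, had an adjusted p of 0.682. The earlier WT change from 0 to 2 h, -1.75 ± 0.67, missed the threshold in edgeR (adjusted p = 0.0976) and passed it in DESeq2 (0.0226, in a range of 0.0226 to 0.308 over the alternatives).

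At 2 and at 4 h every TTP-KO library had more Rcan1 than every WT library. The mean was 9.86 ± 0.953 CPM against 4.19 ± 2.7 at 2 h and 9.14 ± 2.96 against 2.47 ± 1.91 at 4 h. The log2 difference was 1.24 ± 0.67 at 2 h (adjusted p = 0.669) and 1.88 ± 0.68 at 4 h, with a 95% interval from 0.51 to 3.25 (adjusted p = 0.195). Averaged over the 4 times it was 0.96 ± 0.33 (adjusted p = 0.106). None of these passed in edgeR. DESeq2 called the difference at 4 h (1.91, adjusted p = 0.0345, in a range of 0.0345 to 0.662 over 11 alternatives) and the average (0.97, adjusted p = 0.0186, in a range of 0.0186 to 0.274 over 28). Leaving out WT 4 h A, the WT library with the most Rcan1 at that time, also brought the average past the threshold in edgeR (1.17, adjusted p = 0.0387), and took the difference at 4 h to 2.71 (adjusted p = 0.0861). Without WT 2 h B the difference at 2 h was 1.88 (adjusted p = 0.47). Macrophage and monocyte markers were higher in every TTP-KO group, at 1390 to 1780 CPM at 4 h against 711 to 796 in WT, and their part in this difference was not tested.

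**Figure D2:**
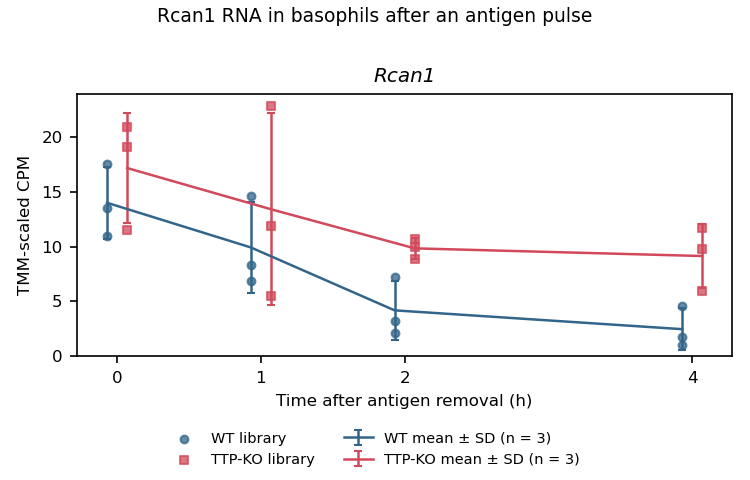
TMM-scaled CPM of Rcan1 (vertical axis, from 0) against hours after antigen removal; points are libraries, lines join group means and bars are SD of 3 libraries, with WT in blue circles and TTP-KO in red squares. WT means go from 14 at 0 h to 2.47 at 4 h and TTP-KO means from 17.2 to 9.14, with no overlap of the genotypes at 2 and 4 h.

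Cabin1, a nuclear protein that binds calcineurin and also represses MEF2, was called in no comparison. In TTP-KO it stood at 16.5, 17.8 and 16.4 CPM at 0 h and at 23.1, 27.6 and 40.3 at 4 h, without overlap. That change, 0.84 ± 0.37, missed the threshold (adjusted p = 0.109), and it passed with library totals alone (1.22, adjusted p = 0.0125) and in DESeq2 (0.88, adjusted p = 0.0269), in a range of 0.0125 to 0.769 over 11 alternatives. WT libraries ran from 16.8 to 30.7 at 0 h and from 18.8 to 29.0 at 4 h (0.18 ± 0.37, adjusted p = 0.833). The difference between the 2 changes was 0.66 ± 0.52 (adjusted p = 0.84).

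Nfatc1, which encodes the NFAT protein known for an inducible short form in lymphocytes, was the most abundant NFAT RNA at the end of the antigen pulse. It stood at 232, 178 and 217 CPM in WT and at 182, 225 and 238 in TTP-KO at 0 h. Levels at 1 h, 219 ± 22.3 and 245 ± 18.1, and at 2 h, 174 ± 20.5 and 182 ± 12.5, did not differ from 0 h past the threshold. At 4 h it stood at 85.5, 93.8 and 75.8 in WT and at 49.4, 70.9 and 68.1 in TTP-KO, below every library at 2 h. From 0 to 4 h the log2 change was -1.30 ± 0.16 in WT (adjusted p = 9.05e-09) and -1.78 ± 0.16 in TTP-KO (adjusted p = 1.81e-12). From 2 to 4 h alone it was -1.03 ± 0.16 (adjusted p = 7.02e-06) and -1.54 ± 0.16 (adjusted p = 5.21e-10). All 4 falls were called in each of their 10 or 11 alternatives. The TTP-KO libraries at 4 h all lay below the WT libraries, by 0.44 ± 0.16 on the log2 scale, with an unadjusted p of 0.00805 and an adjusted p of 0.193. The difference between the falls from 0 to 4 h was -0.48 ± 0.22 (adjusted p = 0.524).

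Nfatc2, which encodes the NFAT protein long studied in T cells and mast cells as a driver of cytokine genes, was the rarest NFAT RNA at 0 h and rose after antigen was gone. In WT it went from 9.62, 4.13 and 19.1 CPM at 0 h to 31.8, 27.4 and 47.6 at 1 h, 41.4, 36.6 and 46.7 at 2 h, and 35.3, 26.0 and 30.5 at 4 h. In TTP-KO it went from 8.12, 8.06 and 17.9 to 23.4, 13.1 and 8.53 at 1 h, 24, 33.5 and 28.5 at 2 h, and 31.9, 22.4 and 18.5 at 4 h. WT libraries were above all of 0 h by 1 h, and TTP-KO libraries only by 2 h. The WT log2 change 1 h after removal was 1.70 ± 0.42 with an adjusted p of 0.0146, and it was 1.92 ± 0.42 by 2 h (0.00114) and 1.48 ± 0.42 by 4 h (0.00911). In TTP-KO it was 0.41 ± 0.41 with an adjusted p of 0.814, then 1.34 ± 0.42 by 2 h (0.0305) and 1.10 ± 0.42 by 4 h (0.0599).

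At 1 h the TTP-KO libraries had less Nfatc2 than any WT library (-1.24 ± 0.42, unadjusted p = 0.00448, adjusted p = 0.317), and so they had at 2 h (-0.54 ± 0.41, adjusted p = 0.84). Set against each other, the first-hour changes of WT and TTP-KO differed by -1.29 ± 0.59, with an unadjusted p of 0.0327 and an adjusted p of 1, so a later rise in TTP-KO was not shown. Over the 4 times the mean difference was -0.52 ± 0.21 (adjusted p = 0.194). The rise of Nfatc2 at 2 h in WT was called in 10 of 10 alternatives, with log2 values from 1.53 to 2.59. Leaving out WT 0 h C, the 0 h library with the most Nfatc2, gave the 2.59, and took the WT rises at 1 and 4 h to 2.37 and 2.15. The other Nfatc2 calls rest on single libraries. The WT rise at 1 h was lost without WT 0 h A (1.61, adjusted p = 0.0651), WT 0 h B (1.31, 0.157) or WT 1 h C (1.43, 0.107), and that at 4 h without WT 0 h B (1.09, 0.0977). The TTP-KO rise at 2 h was lost without TTP-KO 0 h A or B (1.14 each, 0.148) or TTP-KO 2 h B or C (1.21 and 1.34, 0.105 and 0.0564). That at 4 h was gained in 6 of 11 alternatives, with adjusted p from 0.00796 to 0.214.

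Nfatc3, which encodes a further calcium-regulated NFAT protein, rose in both genotypes. In WT it stood at 45.7, 74.9 and 83.8 CPM at 0 h, 88.2, 91.0 and 117 at 1 h, 124, 136 and 137 at 2 h, and 115, 154 and 171 at 4 h. In TTP-KO it stood at 42.8, 82.8 and 67.0 at 0 h, 79.6, 125 and 97.1 at 1 h, 175, 137 and 121 at 2 h, and 138, 94.1 and 114 at 4 h. Library A had the least Nfatc3 at 0 h in both genotypes, and all libraries at 2 and 4 h lay above all at 0 h. From 0 to 2 h the log2 change was 0.96 ± 0.22 in WT (adjusted p = 0.00151) and 1.17 ± 0.22 in TTP-KO (adjusted p = 0.000103). From 0 to 4 h it was 1.10 ± 0.22 (adjusted p = 0.000128) and 0.85 ± 0.22 (adjusted p = 0.00316). These were called in every alternative except 0 to 4 h in TTP-KO without TTP-KO 0 h A (0.62, adjusted p = 0.0566). At 1 h the changes, 0.53 ± 0.22 in WT (adjusted p = 0.26) and 0.65 ± 0.22 in TTP-KO (adjusted p = 0.115), missed the threshold. In TTP-KO the change at 1 h passed with no filter on low counts and without TTP-KO 0 h B or TTP-KO 1 h A, with adjusted p from 0.0315 to 0.551 over the alternatives.

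**Figure D3:**
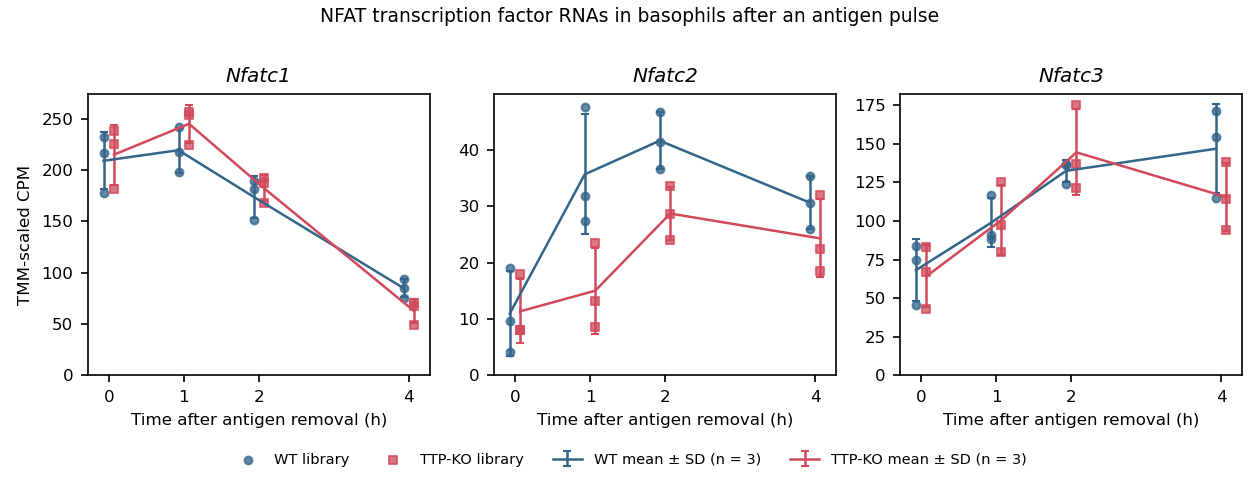
TMM-scaled CPM of Nfatc1, Nfatc2 and Nfatc3 (vertical axes, each from 0) against hours after antigen removal; points are libraries, lines join group means and bars are SD of 3 libraries, with WT in blue circles and TTP-KO in red squares. Nfatc1 libraries at 2 h overlap those at 0 h and lie at 49.4 to 93.8 CPM at 4 h, while Nfatc2 and Nfatc3 lie above their 0 h libraries at 2 h in both genotypes.

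These opposite courses changed which NFAT RNA prevailed. Summed over the 3 genes, NFAT RNA was 288 ± 31.4 CPM in WT and 290 ± 50.2 in TTP-KO at 0 h, and 262 ± 22.7 and 202 ± 15.8 at 4 h. Nfatc1 made up 72.6% ± 7.05 of the sum in WT at 0 h, 62.1% ± 5.09 at 1 h, 50.0% ± 2.98 at 2 h and 32.6% ± 4.65 at 4 h. In TTP-KO its shares were 74.3% ± 3.46, 68.1% ± 3.01, 51.5% ± 5.06 and 31.4% ± 7.93. The libraries at 4 h, from 22.6% to 37.8%, lay below all those at 0 h, from 67.9% to 80.7%. The ratio of Nfatc3 to Nfatc1 went from 0.334 ± 0.12 to 1.75 ± 0.461 in WT and from 0.295 ± 0.0667 to 1.93 ± 0.76 in TTP-KO, and a ratio within a library does not depend on how libraries are scaled.

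**Figure D4:**
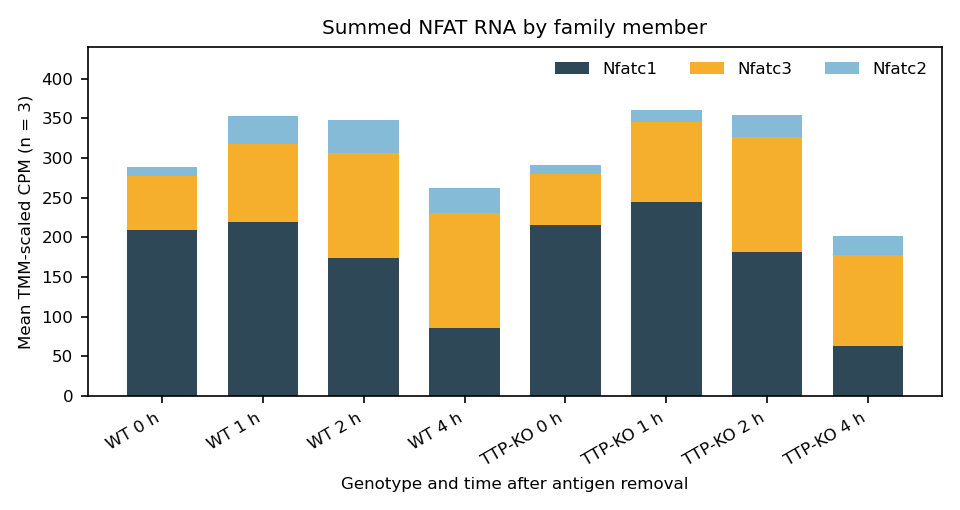
Stacked bars of the mean TMM-scaled CPM (vertical axis, from 0; 3 libraries per bar) of Nfatc1, Nfatc3 and Nfatc2 in the 8 groups of genotype and time. The Nfatc1 part is smallest at 4 h, where its mean share over libraries is 32.6% in WT and 31.4% in TTP-KO, beside 72.6% and 74.3% at 0 h.

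Between genotypes, edgeR called 0 of the 8 genes at 0, 1, 2 and 4 h, against 0.526%, 0.502%, 0.518% and 1.82% of all genes, and 0 averaged over times, against 3.43%. At an unadjusted p under 0.05 there were 0, 1, 0 and 3 genes at the 4 times and 2 in the average. Of the 12936 genes tested, 900, 916, 943 and 1529 were under it at those times and 1858 in the average. DESeq2 called 0, 0, 0 and 1 and, in the average, 1, which was Rcan1 in both cases. Its share over all genes is not given here. The 3 genes with an unadjusted p under 0.05 at 4 h were Rcan1, higher in TTP-KO, and Nfatc1 and Ppp3ca, both lower. Ppp3ca stood at 302 ± 24 CPM in TTP-KO and at 372 ± 6.42 in WT at 4 h (-0.30 ± 0.12, adjusted p = 0.293). The genotypes' libraries did not overlap for 1 gene at 0 h (Ppp3r1), 1 at 1 h (Nfatc2), 3 at 2 h (Nfatc2, Ppp3cb and Rcan1) and 3 at 4 h (Nfatc1, Ppp3ca and Rcan1). Of all genes tested, 13.2%, 12.1%, 11.5% and 13.9% had no overlap at these times. The difference between the genotypes' changes was called for 0 of the 8 genes from 0 to 1, 2 or 4 h, against 0.0618%, 0.0773% and 0.193%, and for 0 from 2 to 4 h, against 0.0155%. At an unadjusted p under 0.05 these counts were 1, 0, 2 and 1, against 595, 844, 1144 and 983 of the 12936 genes tested. DESeq2 called 0 of the 8 in each. A missed threshold does not show that the genotypes were alike: the 95% interval at 4 h ran from -0.76 to -0.12 for Nfatc1, from -1.16 to 0.49 for Nfatc2 and from -0.78 to 0.09 for Nfatc3.

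**Figure D5:**
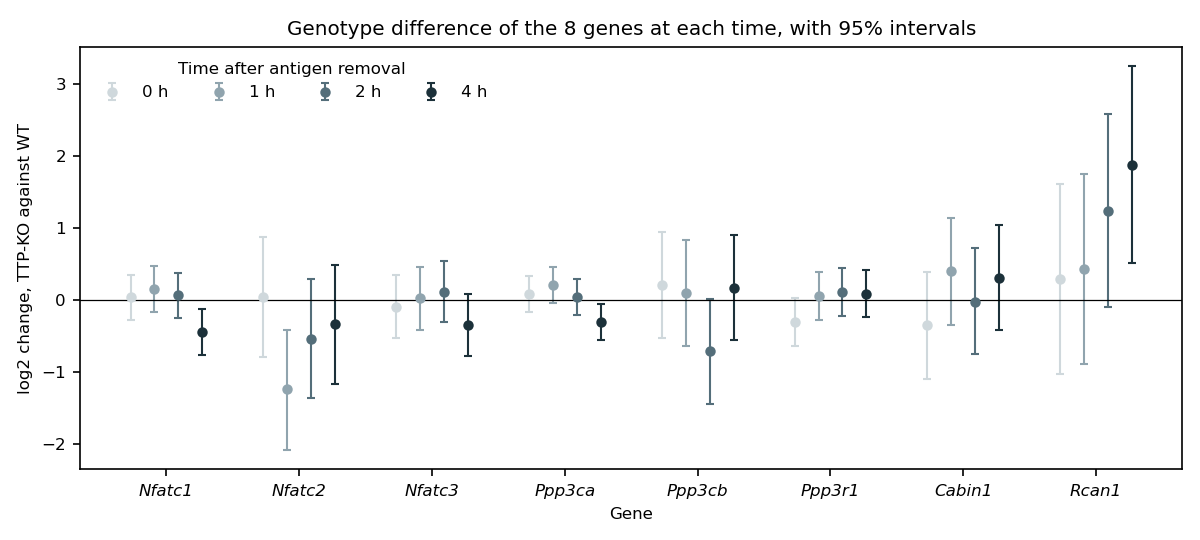
Log2 change of TTP-KO against WT (vertical axis) for the 8 genes at 0, 1, 2 and 4 h after antigen removal, from light to dark; points are edgeR estimates and bars 95% intervals. At 4 h the bars of Nfatc1 and Ppp3ca lie below 0 and that of Rcan1, from 0.51 to 3.25, above it, the bar of Nfatc2 at 1 h lies below 0, and none of these passed after adjustment over all genes.

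Because TTP binds UAUUUAU-like sequences in 3' UTRs, the heptamer TATTTAT was sought on the transcript strand in the longest 3' UTR of each gene in GENCODE M21 (GRCm38). It occurred in 3 of the 8 genes, and in 30.7% of 12740 tested genes with a 3' UTR. Each of the 5 sites is shown with 10 bases on either side and the heptamer in capitals, to let it be set beside the values above.
Ppp3ca, 491 bases after the stop codon: aactaaggacTATTTATtgataatgtt
Ppp3ca, 889 bases after the stop codon: ctgaattcaaTATTTATgagtggtgca
Ppp3r1, 323 bases after the stop codon: catatgtaaaTATTTATatatagatat
Ppp3r1, 611 bases after the stop codon: tctgtaacttTATTTATatctctgact
Nfatc2, 2424 bases after the stop codon: agttagaacaTATTTATaaatgaccag
The nonamer TTATTTATT, found in 8.38% of these genes, was in none of the 8. None of the 8 genes, with or without a heptamer, was called higher in TTP-KO by edgeR at any time. Rcan1 held 0 heptamers in a 3' UTR of 1500 bases, and Nfatc1 0 in 2338. Whether TTP acts on any of these RNAs was not tested. A match is not a bound site, and the authors' reads were placed on another build.

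Of the relatives of these genes, Rcan3 and Nfat5 had reads in all libraries. Rcan3, a paralogue of Rcan1, went from 9.90 ± 4.91 to 21.3 ± 2.97 CPM from 0 to 2 h in WT (1.10 on the log2 scale, adjusted p = 0.155) and from 7.51 ± 2.73 to 22.7 ± 5.05 in TTP-KO (1.60, adjusted p = 0.0243, called in 6 of 10 alternatives). Nfat5, the NFAT relative that responds to salt and not to calcineurin, went from 41.8 ± 8.56 to 19.1 ± 5.10 from 0 to 4 h in TTP-KO (-1.13, adjusted p = 0.0272, called in 7 of 11) and from 34.9 ± 7.16 to 17.5 ± 13.0 in WT (-1.0, adjusted p = 0.0589). Ppp3cc, another catalytic subunit gene, reached at most 6.50 CPM, Rcan2 11.4 and Nfatc4 1.86, and they were at 0 in 6, 16 and 22 of the 24 libraries. Relatives were set beside the 8 genes after their values were seen.

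Genes around calcineurin and NFAT were counted by list. The lists were chosen with earlier results of these data known, so the counts are a description and no independent support. Of all genes tested, 9.97% fell and 6.76% rose from 0 to 4 h in WT, and 10.6% fell and 7.45% rose in TTP-KO. Of 20 tested NFAT target genes, mostly cytokine and early response genes, 12 fell and 0 rose in each genotype. Their median was -2.62 in WT and -2.48 in TTP-KO, beside 0.06 and 0.08 for all genes. The 3 with the largest falls in WT were Nr4a1 (-5.14 ± 0.16), Il13 (-4.75 ± 0.23) and Nr4a3 (-4.56 ± 0.19), a cytokine between nuclear receptors. Between genotypes, 4, 6, 6 and 6 of them were higher in TTP-KO at 0, 1, 2 and 4 h, against 0.448%, 0.402%, 0.41% and 0.943% of all genes, and 1 was lower at 4 h, against 0.881%. Ccl3, Il6, Ptgs2 and Tnf were higher at 0 h, joined by Il4 and Il13 at 1 and 2 h, and at 4 h Egr2 was higher and Ptgs2 was not called. Il4, the signature cytokine of basophils, fell from 3180 ± 183 to 367 ± 14 CPM in WT and from 3250 ± 513 to 1170 ± 173 in TTP-KO from 0 to 4 h. Egr3 was the one that was lower at 4 h (-0.43 ± 0.11, adjusted p = 0.0366, called in 4 of 11 alternatives). The count of 6 at 4 h was 2 with only the groups compared, 3 without WT 4 h B and 3 without TTP-KO 4 h C. At the same times 9, 7, 8 and 7 of the 19 macrophage and monocyte markers were called higher in TTP-KO, with median log2 differences of 1.97, 1.67, 1.74 and 1.67, and macrophages also express Ccl3, Il6, Ptgs2 and Tnf. The part of those cells in these differences was not tested. As background, Tnf and other cytokine RNAs of this list are known TTP targets.

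In the other lists, edgeR called 0 or 1 gene per list at any one time, and the share of all genes called was 0.502% to 1.82%, so these counts say little about the lists. Among 11 further calcineurin subunits and regulators it was Fkbp1a, which encodes the FK506-binding partner of calcineurin and was higher in TTP-KO at 2 h (0.82 ± 0.21, adjusted p = 0.0486, called in 2 of 10 alternatives). Among 19 NFAT relatives and partners it was Maf, a factor that helps drive Il4 and is also abundant in macrophages, higher at 4 h (2.19 ± 0.49, adjusted p = 0.00763, called in 7 of 11), at 42.2 ± 17 against 9.26 ± 4.14 CPM, and the part of the higher macrophage markers in this was not tested. DESeq2 called 2 genes of that list at each of the 4 times, and in the average over times edgeR called 3 higher and 2 lower, against 3.43% of all genes, and DESeq2 5. Among 15 NFAT kinases, scaffolds and export genes it was the kinase Csnk1d, lower at 4 h (-0.57 ± 0.15, adjusted p = 0.0299, called in 3 of 11). Among 26 genes of calcium entry and IgE receptor signalling it was the receptor chain Ms4a2, lower at 2 h (-0.64 ± 0.16, adjusted p = 0.0326, called in 6 of 10). Among 12 other calcineurin substrates and MEF2-linked class IIa deacetylases, edgeR called 0 at any time. At most 1 had an unadjusted p under 0.05, and DESeq2 called 0. Of the 12936 genes tested, 900 to 1529 were under that unadjusted threshold at the 4 times.

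Over time more genes were called in these lists, as among all genes. Of all genes, 9.97% fell and 6.76% rose from 0 to 4 h in WT, and 10.6% fell and 7.45% rose in TTP-KO. In WT, 8 of 19 partners fell and 1 rose. The counts were the same in TTP-KO, though the fall of Fos was called only in WT and that of Nfat5 only in TTP-KO. In WT the AP-1 genes Fosb (-6.14 ± 0.77), Fos (-3.14 ± 0.67) and Junb (-2.54 ± 0.15) had the largest falls, and Batf rose by 2.02 ± 0.66 (called in 4 of 10 alternatives). At 4 h in WT, Fosb stood at 1.59 ± 2.36 CPM and Fos at 3.24 ± 4.57, each down to 0 in its lowest library. The sizes of the Fosb and Fos falls are therefore uncertain. Of 26 calcium and receptor genes, 6 fell and 2 rose in WT, and 7 fell and 4 rose in TTP-KO. Those with the largest falls were the IgE receptor chain Fcer1a (-2.05 ± 0.19), the calcium pump Atp2b1 (-1.95 ± 0.21) and the calcium channel Orai1 (-1.69 ± 0.16), and the kinase Btk (1.03 ± 0.21) and the adaptor Gab2 (0.59 ± 0.18, called in 7 of 10) rose. Among kinases and scaffolds, the scaffold Homer1 (-2.63 ± 0.30) and the kinase Dyrk1a (-0.82 ± 0.22, called in 8 of 10), which phosphorylates NFAT for export, were the 2 of 15 that fell in WT and none rose, and in TTP-KO 4 fell and none rose. Of the 11 calcineurin regulators, Calm3 (-0.84 ± 0.14), Ppia (-0.45 ± 0.13) and Calm2 (-0.39 ± 0.12) fell and Fkbp1a (0.82 ± 0.21) rose in WT, and 3 fell and 1 rose in TTP-KO. The falls of Ppia and Calm2 were each called in 7 of 10 alternatives, with adjusted p up to 0.56 and 0.778. The deacetylase gene Hdac7 (1.08 ± 0.24) and the CREB coactivator gene Crtc2 (1.06 ± 0.29, called in 9 of 10) rose in WT among the 12 other substrates and deacetylases. In TTP-KO 1 of that list rose.

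The genes whose mean log2 CPM over the 8 groups followed each member most closely were found among 7073 genes, as a description, since the 8 points share libraries and scaling with every gene compared. For Nfatc1 they were Npl (Pearson r = 0.997), Rps6ka3 (0.996) and Vcl (0.995). For Nfatc3 they were Chpf2 (0.996), Cep120 (0.983) and Ino80b (0.981), and for Nfatc2 Senp5 (0.977) and Angel2 (0.968). For Rcan1 they were Selenop (0.979), Rps27a (0.971) and Ddrgk1 (0.968), and for Ppp3ca Sntb2 (0.989), Rasa2 (0.981) and Adgre1 (0.978), a macrophage marker. For Ppp3cb they were Ash2l (0.981), Tanc2 (0.96) and Hdac2 (0.928), for Ppp3r1 Kifbp (0.95), Ckap2 (0.936) and Zc3h7b (0.926), and for Cabin1 Mybbp1a (0.957), Trappc4 (0.947) and Nip7 (0.942).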

How the data were processed

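RNA of 24 libraries (8 groups of 3) was sequenced as 3' tags after alkylation of s4U with 10 mM iodoacetamide (15 min at 50 °C), from 65 ng of RNA, per the labels' protocols. Of upstream tools, the submitters' processing notes list STAR 2.7.10a, cutadapt 3.5 and SAMtools, and of builds GRCm39, with no role or order. GRAND-SLAM and grandR were meant for half-lives, per the series' design text. No source used here gives the annotation, the strand setting or the filters, so antisense partners cannot be told apart. The authors deposited expected counts of reads per gene, not normalized, of which 12.8% are not whole. They were rounded. Columns carry a letter and the labels a number, so each column was tied to its group only. The other 144 columns of per-sample values (labelled share and its parameters) were not used here, although their use had been planned, and no half-lives are given.

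Reads were scaled with TMM and filtered with filterByExpr in edgeR 4.0.16 (R 4.3.3), which kept 12936 genes. Quasi-likelihood tests on 8 group means over all libraries gave log2 changes with SE and Benjamini-Hochberg adjusted p over all genes, called under 0.05. The code was tested on simulated data. The alternatives were library totals alone, DESeq2 1.42.0 (local dispersion fit), no filter, only the groups compared, each library left out, and TTP-KO 4 h B and C left out. The contrasts from 2 to 4 h and a block on the column letter were added after the levels were seen. The 8 genes and the lists were chosen with earlier results of these data known. Named list genes are those called between genotypes at any time and the 3 largest called changes each way from 0 to 4 h in WT. The most similar genes were the 3 with the highest Pearson r over group means of log2(CPM + 1), among genes with a mean of at least 10 CPM. For Nfatc2, 1 of these 3 is not reported here. Promoters came from RefSeq (GRCm38.p6), with none in the table for Nfatc1 or Ppp3ca.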

Additional observations from a re-analysis of the deposited data

How the results depend on the processing

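The 16 called changes of the 8 genes were recomputed 165 times under the alternatives: 142 values were again called with the same sign, 23 kept the sign and missed the threshold, and 0 had the opposite sign. Among 23 further named changes, 17 of 299 values passed the threshold and 1 turned sign, the Nfatc2 change from 0 to 1 h in TTP-KO, which was -0.06 without TTP-KO 1 h A (up to 0.89 with another library left out). Counts of the 8 genes called moved by over 1.5 times as follows, and the shares of all genes called under these alternatives are not given here. DESeq2 called 1 at 4 h and 1 in the average between genotypes in place of 0, and 5 in TTP-KO from 0 to 4 h in place of 3. Library totals alone called 6 there, and 1 in place of 2 in TTP-KO from 2 to 4 h, as did the fit on only the groups compared. With no filter, 1 was called in TTP-KO from 0 to 1 h in place of 0. Leaving out 1 library gave 0 to 1 in the average between genotypes, 0 to 1 in WT from 0 to 1 h, 3 to 5 in WT from 0 to 4 h, 0 to 1 in TTP-KO from 0 to 1 h, 1 to 2 from 0 to 2 h and 1 to 2 from 2 to 4 h. The count of NFAT targets higher in TTP-KO at 4 h was 2 with only the groups compared and 3 to 7 with 1 library left out. Beyond the smaller number of libraries in some of these fits, the cause was not tested. Replicate pairing: the columns carry letters and the labels numbers, with nothing that ties them. Over 84 pairs of libraries of different groups with the same letter, deviations from group means correlated at -0.13 to 0.11, and 7 of 24 libraries correlated best with their own letter, so the letters were not taken to pair libraries. A replicate block on the letter, chosen after seeing the data and left out of the tallies above, moved 1 of 39 named changes across the threshold, Nfatc2 from 0 to 4 h in TTP-KO (1.16, adjusted p = 0.0392, beside 0.00796 to 0.214 over the other alternatives), so that 4 genes were called there. Rcan1 rests on 17 to 360 reads a library.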
